A study of Mus musculus with 15 samples.

Results

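Eyes of newborn wild-type mice were compared with eyes that still had fused lids 3 days after birth. The comparison used 6 of the 15 RNA libraries of a series on Egr1, a zinc finger transcription factor of the immediate-early class, in the mouse eye and eyelid. They were chosen by their labels alone: 2 libraries of newborn wild-type eyes, and 4 libraries of single closed eyes at day 3. The closed eyes came from 3 mice. Mouse E24 (left eye) and mouse E29 (right eye) were labelled Egr1-/- and had open lids on their other eye, and mouse E28 (both eyes) was labelled Egr1+/-. All mice were BALB/c by label, and the Egr1 mutation had been brought in from C57BL/6 by 5 generations of backcrossing in a first round and 4 in a second. The material was whole eye with its eyelids. Labels give no age in days for the newborns, no animal for a newborn library and no sequencing batch, so p-values on the newborn side measure the spread between 2 libraries. Age and genotype label differed between the sides and cannot be told apart, nor can either from a difference in preparation, on which the labels are silent.

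Mouse eyelids grow together before birth and stay sealed until they reopen weeks later, and during that time the lid skin cornifies and hair follicles form. Behind the sealed lids the retina is still being built around birth: progenitor cells divide, ganglion cells, cones, horizontal and amacrine cells have mostly been born earlier, and rods, bipolar cells and Müller glia are still being added. Lens fibre cells fill with crystallins, and the cornea, vessels and extraocular muscles mature. In whole-eye RNA a lower level can mean fewer cells of a type or less RNA per cell, and these cannot be told apart.

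Reads in transcripts came to 20334849 and 25827610 in the newborn libraries and to between 31981438 and 43907093 in the closed eyes. The markers of lens, retina, cornea, epidermis, hair follicle and muscle were found on both sides, as the label of whole eye with lids states. Some properties of the libraries moved with age. Transcripts at 0 reads made up 1.63% and 6.07% of all transcripts in the newborn libraries and 16.9% to 17.2% in the closed eyes. The 1364 transcripts of nose receptor genes (odorant and vomeronasal receptors, which the eye is not known to use at high levels) took 356 and 95.7 RPM (reads scaled to the raw library total) in the newborn libraries and 1.78 to 6.44 in the closed eyes. Genes rich in G and C ran higher at day 3: the median log2 fold change went from -0.63 in the fifth of genes with the lowest GC content to 0.39 in the fifth with the highest. Lung epithelium genes were higher in the closed eyes and are described below. The Y-linked genes Ddx3y, Eif2s3y and Uty had reads in all 6 libraries and were lower at day 3 (log2 fold changes -0.94, -1.58 and -1.24), as was Xist (-3.73), at most 4.00 CPM in any library. The part of these properties in the differences was not tested as a cause. Many gene groups, though not all, are given beside a fit with offsets for GC content and exon length. Of 5 sex-linked genes, 4 were lower without the offsets and 1 with them.

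**Figure D1:**
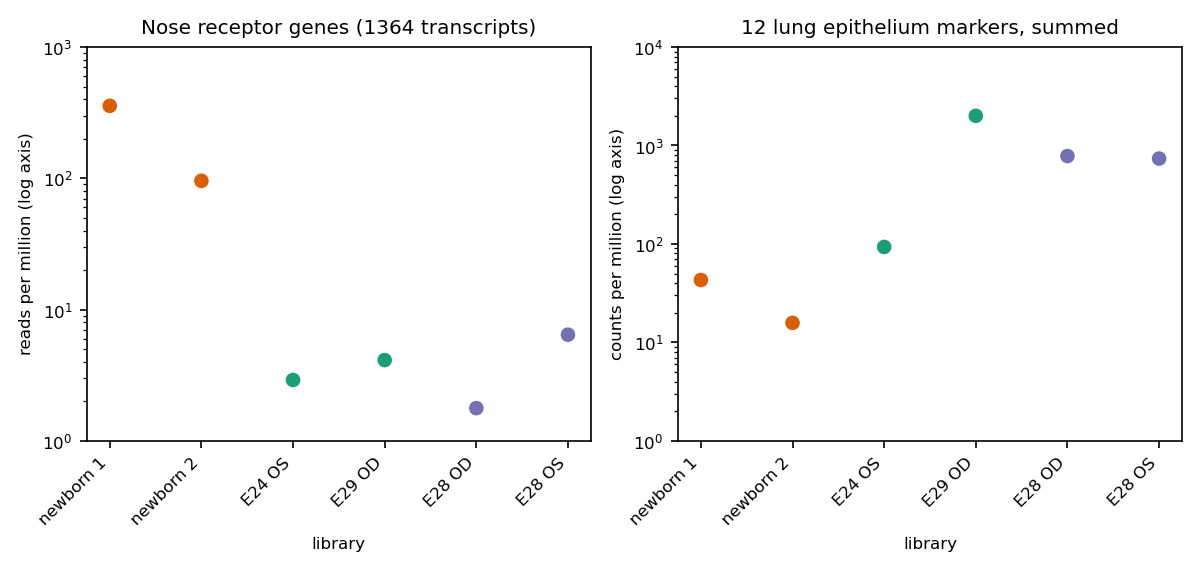
RPM (defined above) in 1364 nose receptor transcripts (left) and the summed CPM of 12 lung epithelium markers (right), on log axes, for each newborn wild-type library and each day 3 closed eye. Both newborn libraries are above every closed eye on the left, and below every closed eye on the right.

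Egr1 RNA (NM_007913) was higher in eyes labelled Egr1-/- than in wild-type eyes, and those mice are called labelled knockouts here. The reason was not tested, and the RNA level alone does not show whether the labels hold. Newborn wild-type libraries had 49.8 and 60.5 CPM (reads scaled to the library total after TMM normalization). Closed eyes had 145.2 in labelled knockout E24, 209.1 in labelled knockout E29 and 91.8 and 103.4 in the right and left eye of heterozygote E28. Every closed eye was above both newborn libraries, and the labelled knockouts were the highest. The log2 fold change was 1.44 (SE 0.30, edgeR adjusted p = 0.00956), and without newborn replicate 1 the adjusted p was 0.108. Newborn labelled knockouts had 206.8 and 260.3 CPM on a scale set over all newborn and day 3 libraries. The adult labelled knockouts had 245.8 and 165.7 RPM and the adult wild type 29.5. Between the labelled-knockout mice and the heterozygous mouse at day 3, edgeR called 0 genes, with 1 mouse on one side and 2 on the other, so this bears little on the labels (502 had an unadjusted p under 0.05, and the smallest adjusted p was 0.772).

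Of 15933 genes tested with edgeR, 3215 (20.2%) were higher and 3033 (19.0%) lower at day 3 at an adjusted p of at most 0.05. Of these, 735 rose and 1304 fell by at least 2-fold, and 6161 had every library of one side above every library of the other. Separation was counted among called genes only, not over all genes, so here and below it adds no support to a call. With offsets for GC content and exon length, 1504 (9.44%) were higher and 1391 (8.73%) lower. Of the 6248 genes called without offsets, 2136 were also called in the same direction with them, and 805 changed sign. Leaving out newborn replicate 1, the counts were 909 and 396, and without newborn replicate 2 they were 2263 and 1639. A further fit took all newborn and day 3 mice, each group kept apart, with 1 estimate of the spread for all (here the shared-spread fit). The closed and open eyes of E24 and E29 entered it as separate units, though each pair shares a mouse. Its spread drew also on newborn labelled knockouts and open eyes, so a lost call can reflect variation outside this comparison. The shared-spread fit called 2240 genes higher and 2280 lower, 4325 of the 6248 among them, and 95 of the 160 called genes named in the text. As a second view of age at one genotype label, newborn labelled knockouts (2 libraries) were compared with the closed eyes of E24 and E29. There 3042 (19.3%) of 15770 genes were higher and 2801 (17.8%) lower. List counts given below with the offsets or between labelled knockouts are to be read beside the shares of the same fit here. Both comparisons share these closed eyes, so values are set side by side only. The newborn labelled knockouts also differed in make-up: lens genes summed to 1249 CPM in one of them and 106846 in the other, and retinal progenitor genes to 1856 and 2663, against 5786 and 6201 in the wild types. Here and below, CPM of newborn labelled knockouts are on a scale set over all newborn and day 3 libraries. CPM of newborn wild types and closed eyes are on the scale of the libraries compared.

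**Figure D2:**
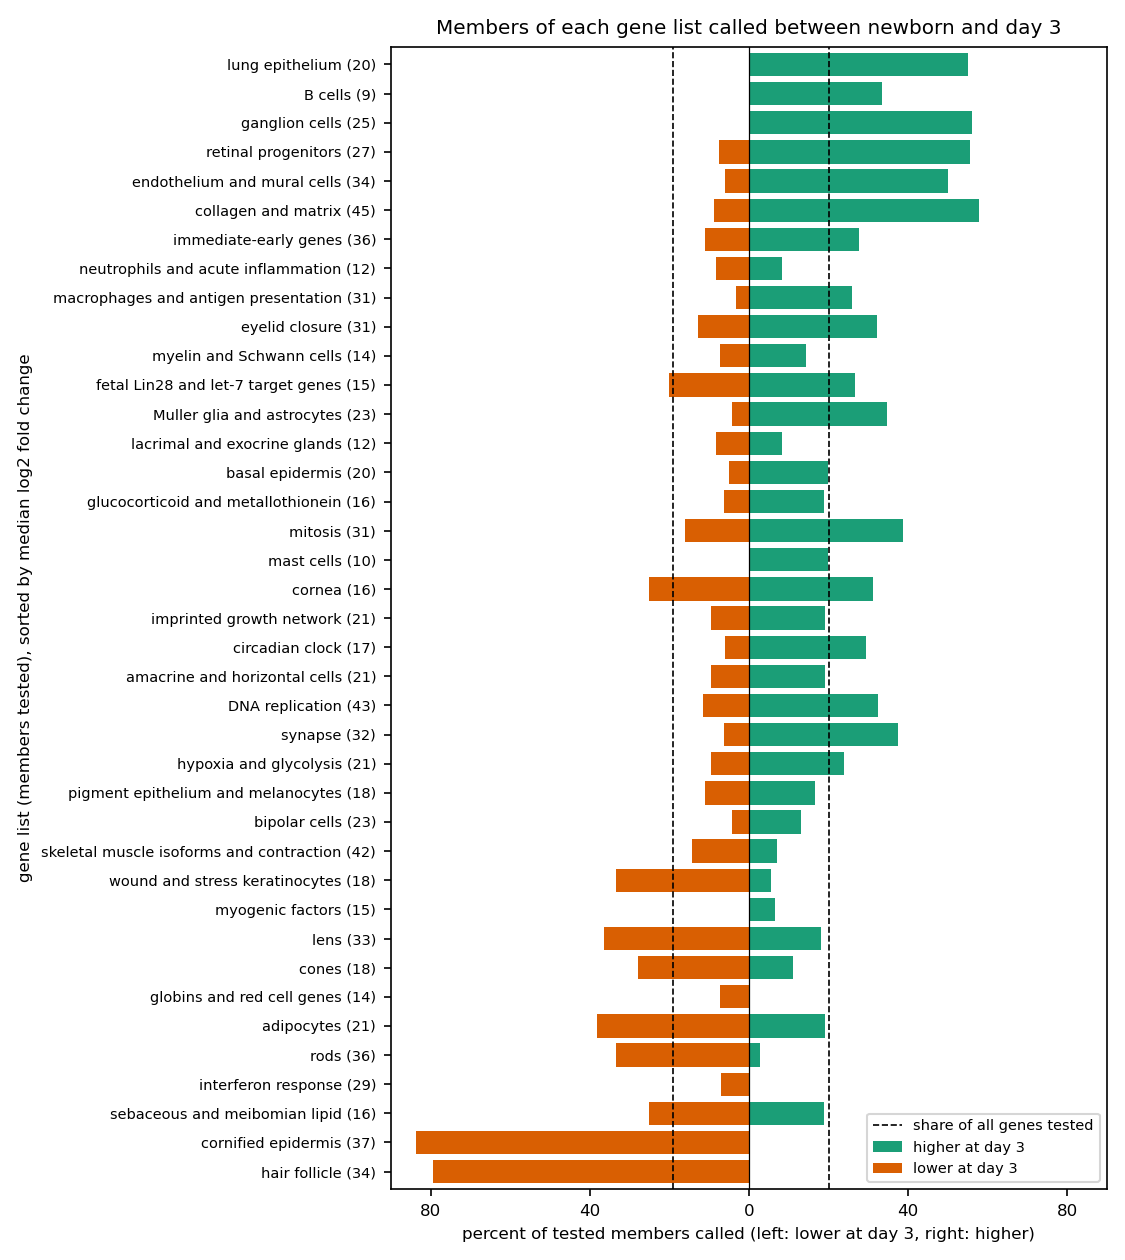
Percent of the tested members of each gene list, a list of sex-linked genes left out, that were called lower (left bars) or higher (right bars) at day 3, with the number tested in brackets and lists sorted by median log2 fold change. Dashed lines mark the 19.0% and 20.2% of all tested genes, and the hair follicle and cornified epidermis lists extend farthest to the left among the lists drawn.

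Hair follicle genes were far lower in the closed eyes. The list holds 41 genes of the hair shaft, its inner root sheath and the factors that form them. Of the 34 that passed the filter on low counts, 27 fell and 0 rose, beside 19.0% and 20.2% of all genes tested. Of the 34, 9 had 0 reads in every closed eye, so they passed the filter through the newborn libraries alone and could only be lower. Krt71, Krt25, Krt28 and Krt35, near 0 at day 3, also passed it through the newborn libraries, so it largely set their direction. The median log2 fold change was -5.49 against -0.06 for all genes, or -4.73 with those 9 members set to their bounds. Krt71 (NM_019956, chromosome 15), a keratin of the inner root sheath, had 44.0 and 178.9 CPM in the newborns and 0.378 (E24), 0.0393 (E29), 0.130 and 0.164 (E28) at day 3. Krt25 (NM_133730, chromosome 11), its acidic partner class in the same sheath, had 27.4 and 94.9 CPM against 0.151, 0.118, 0.324 and 0.0821. For both genes each newborn library lay far above every closed eye, while the newborn libraries differed from each other several-fold. Log2 fold changes were -9.26 (SE 0.78, adjusted p = 0.00102) for Krt71 and -8.43 (SE 0.64, adjusted p = 0.000986) for Krt25.

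Promoters of this list share letters that the choice of members did not use. The letters TATAAA, searched on both strands after the values had been seen, occur within 250 bases before to 50 bases after the start of 22 of the 31 members that match a RefSeq window (71%), and in 15.7% of all 27025 genes with such a window. This is a description of letters, not of bound factors. Windows of the 2 inner root sheath keratins above, and of the epidermal keratin Krt10, which fell alongside them, are shown with TATAAA in capitals (RefSeq on GRCm38.p6, minus strand: Krt71 chr15:101743048-101743347, Krt25 chr11:99322902-99323201, Krt10 chr11:99389315-99389614).
Krt71: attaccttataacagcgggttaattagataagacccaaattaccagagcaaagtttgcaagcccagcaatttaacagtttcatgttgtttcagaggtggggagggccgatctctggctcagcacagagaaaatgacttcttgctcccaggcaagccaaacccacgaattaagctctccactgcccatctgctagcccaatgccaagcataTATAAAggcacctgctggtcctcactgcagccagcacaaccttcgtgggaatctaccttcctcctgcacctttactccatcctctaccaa
Krt25: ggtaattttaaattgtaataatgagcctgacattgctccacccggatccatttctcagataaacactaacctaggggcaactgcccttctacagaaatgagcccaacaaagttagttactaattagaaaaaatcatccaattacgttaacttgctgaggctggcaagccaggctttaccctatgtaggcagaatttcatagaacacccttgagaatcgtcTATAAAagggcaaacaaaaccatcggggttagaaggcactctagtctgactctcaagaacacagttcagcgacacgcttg
Krt10: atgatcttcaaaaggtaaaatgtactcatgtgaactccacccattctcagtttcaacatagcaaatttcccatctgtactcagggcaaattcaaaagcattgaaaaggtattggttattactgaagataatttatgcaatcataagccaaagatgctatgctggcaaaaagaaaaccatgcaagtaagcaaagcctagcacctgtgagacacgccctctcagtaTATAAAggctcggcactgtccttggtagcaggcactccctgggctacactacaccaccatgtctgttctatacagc
The capitals begin 40 bases before the start of transcription in Krt71, 30 in Krt25 and 26 in Krt10.

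Further root sheath genes fell less far. Krt27 had 20.1 and 68.1 CPM against 3.29, 4.40, 3.30 and 5.01 (log2 fold change -3.50), and Tchh, the trichohyalin that hardens the sheath, 23.4 and 57.0 against 4.73 to 5.47 (-3.02). Krt28 (-5.85) was at or below 0.288 CPM in every closed eye. Krt73, another root sheath keratin, did not follow: it had 15.4 and 39.0 CPM in the newborns and 16.4 to 19.95 in the closed eyes (log2 fold change -0.64, adjusted p = 0.16).

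Krt35, a keratin of the hair shaft, had 4.46 and 20.4 CPM against 0 to 0.194 (-7.03). The other shaft and cornifying genes named here were at 0 reads in all 4 closed eyes, so their folds are lower bounds against 3 reads over the whole day 3 side. Prr9 (chromosome 3), a proline-rich gene of cornifying cells, had 453 reads in the newborn libraries and was at least 376.7-fold lower at day 3. Krt33a was at least 151.4-fold and Krt83 at least 99.8-fold lower. Among keratin-associated proteins, which fill the shaft, the bounds were 60.7-fold for Krtap1-4, 59.9-fold for Krtap11-1, 50.7-fold for Krtap8-1, 36.6-fold for Krtap9-3 and 33.3-fold for Krtap4-8. Krtap3-1 and Krtap3-3 had the same reads in every library (each at least 48.2-fold lower), so they are uncertain as separate genes. Of the 16 genes named here as falling, 14 kept the call without newborn replicate 1 and 14 without newborn replicate 2: Krtap4-8 was called in neither, Krtap9-3 was lost without replicate 1, and Krtap8-1 and Krtap4-8 were not tested without replicate 2. All but Krt27 and Tchh passed the filter through the newborn libraries, where they were high. Keeping a call in refits of the same libraries therefore adds no support. In the shared-spread fit 3 of the 16 kept the call (Krt71, Krt25 and Krt28), and the other adjusted p-values ran from 0.056 (Prr9) to 0.141 (Krtap4-8).

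The hair list was called 27 times under the GC and length offsets too (median -5.68), 25 times after the level of the nose receptors was subtracted, and 24 and 19 times without newborn replicates 1 and 2. It was called 5 times of 36 tested in the shared-spread fit, at a median of -5.47. Between the labelled-knockout groups, 16 of 26 tested members were lower and 3 higher at day 3 (median -2.96). Summed over the list, the newborn wild types had 191.2 and 609.8 CPM and the closed eyes 47.7 to 55.4.

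Genes of the cornified epidermis, the dead outer layers of skin, were mostly lower as well. Of 49 listed genes 37 were tested, and 31 fell and 0 rose (median log2 fold change -4.25, or -3.77 with 9 members at bounds). Those 9 had 0 reads in every closed eye and passed the filter through the newborn libraries alone, so they could only be lower. Ivl and Dsc1, described below and near 0 at day 3, also passed it through the newborn libraries, so it largely set their direction. Krt10 (NM_010660), a keratin of cells that leave the basal layer, had 38.7 and 205.3 CPM in the newborns and 5.60 (E24), 4.40 (E29), 3.47 and 5.05 (E28) in the closed eyes. Its pair Krt1 had 39.9 and 212.9 CPM against 7.98, 3.93, 5.41 and 9.04. Newborn and closed eyes did not overlap for either gene, and newborn replicate 2 was the highest library for both. The log2 fold changes were -4.71 (SE 0.62, adjusted p = 0.0021) for Krt10 and -4.32 (SE 0.64, adjusted p = 0.0029) for Krt1. Both calls were lost in the shared-spread fit (adjusted p = 0.0904 and 0.0685).

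Proteins of the cornified envelope followed. Loricrin (Lor) had 10.6 and 32.4 CPM against 1.38 to 4.13 (log2 fold change -2.90), and involucrin (Ivl) 1.23 and 2.60 against 0 to 0.246 (-4.54). Tgm3, a transglutaminase that cross-links the envelope, fell by 3.34 and Calm4, a calmodulin-like protein of differentiating keratinocytes, fell by 4.27 on the log2 scale. Klk7, a protease that loosens dead cells at the skin surface, was at 0 reads at day 3 and at least 144.7-fold lower. Desmocollin 1 (Dsc1) had 147 reads in the newborns and 3 at day 3, a ratio of 122.2 (95% interval 41.0 to 599.6, counting error only). Aqp3, a water and glycerol channel also made by living epithelium, had 33.3 and 44.1 CPM against 37.8 to 53.3 and was not called (adjusted p = 0.359). The list's calls fell from 31 to 16 without newborn replicate 1, when Tgm3 was lost (adjusted p = 0.0526), and to 15 without replicate 2, when Lor was lost (adjusted p = 0.0603). In the shared-spread fit it had 6 lower of 47 tested, and of the 8 called genes named here only Ivl was called, with adjusted p-values from 0.0583 (Klk7) to 0.3 (Lor) for the others. With the offsets 27 members fell, and in the labelled knockouts 22 of 30 fell and 1 rose (median -4.66).

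**Figure D3:**
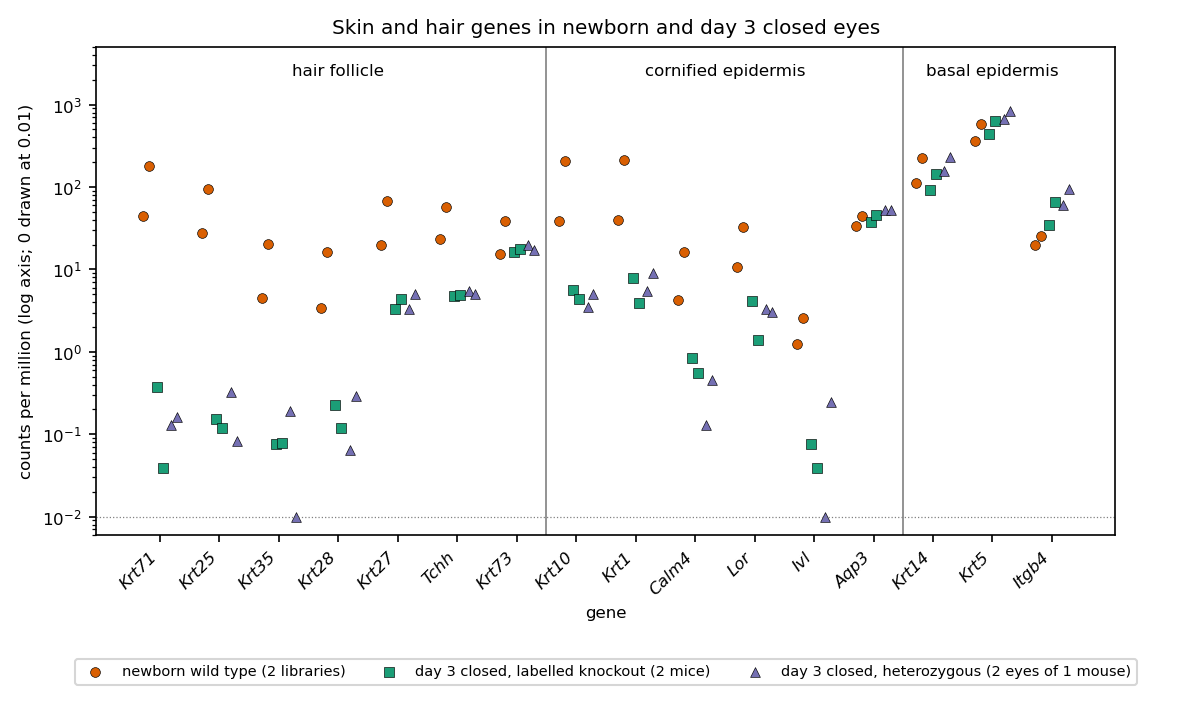
CPM (log axis, 0 drawn at 0.01) of hair follicle, cornified epidermis and basal epidermis genes in the 2 newborn wild-type libraries, the closed eyes of 2 labelled-knockout mice and both eyes of 1 heterozygous mouse. Krt71 and Krt25 lie at 27.4 CPM or more in newborns and below 0.4 CPM in every closed eye, while Krt73, Aqp3, Krt14 and Krt5 overlap between the ages.

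The basal layer of the epidermis, which holds its dividing cells, gave few lower calls. Of 20 basal genes 4 were higher and 1 lower (median 0.27). The higher share was near the 20.2% of all genes, and 19.0% of all genes were lower. Krt5 had 358.7 and 579.5 CPM in the newborns and 433.9 to 833.8 in the closed eyes (log2 fold change 0.35, adjusted p = 0.32). Krt14 had 110.8 and 222.5 against 92.2 to 234.3 (log2 fold change -0.24, adjusted p = 0.612). Levels of both keratins overlapped between the ages. Among adhesion genes, Cdh3 (P-cadherin) had 30.0 and 33.3 CPM against 59.8 to 66.9 (1.03, adjusted p = 0.00138), Itgb4, an integrin of hemidesmosomes, rose by 1.37 (adjusted p = 0.0124), Jup (plakoglobin) rose by 1.26 (adjusted p = 0.00751) and Dsc3 fell by 1.54 (adjusted p = 0.00564). When newborn replicate 1 was left out, Itgb4 (adjusted p = 0.131) and Jup (0.0727) were lost, and without replicate 2 Itgb4 (0.0507) and Dsc3 (0.0659), as both were in the shared-spread fit (0.127 and 0.0764). With the offsets Itgb4 was at 0.43 and Jup at 0.68, neither called, and the list had 1 higher and 1 lower. In the labelled knockouts 18 of 20 basal genes were lower at day 3 (median -2.81) with 0 higher. The newborn labelled knockouts carried far more basal RNA. There the 6 main markers summed to 8957 and 7799 CPM, on a scale set over all newborn and day 3 libraries. On the scale of the libraries compared, they summed to 1074 and 1494 in the newborn wild types and to between 1045 and 2249 in the closed eyes.

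Wound and stress genes of keratinocytes were called 6 times lower and 1 time higher among 18 tested (median -0.15), beside 19.0% and 20.2% of all genes. Sprr1a, a cross-linked envelope protein induced in stressed skin, had 6.00 and 17.3 CPM against at most 0.314 at day 3 (log2 fold change -5.61, adjusted p = 0.0012). Serpinb3a, a protease inhibitor, had 37.3 and 28.3 against 0.943 to 3.70 (-4.24, adjusted p = 0.000986). Neither gene overlapped between ages. Krt6a, which marks activated keratinocytes and the fusing lid edge, had 83.4 and 103.0 CPM against 100 to 184.1 and was not called (adjusted p = 0.133). Krt17 had 47.9 and 145.6 against 21.4 to 77.2, and its call (-1.44, adjusted p = 0.0497) was lost without newborn replicate 2 (0.546), without E24 or E29, with the offsets (0.0515) and in the shared-spread fit (0.112). Between the labelled-knockout groups, 25 of 27 wound genes were lower at day 3 (median -5.84), with 0 higher, beside 17.8% and 19.3% of all genes.

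Of 21 adipocyte genes tested, 8 fell and 4 rose (median -0.30), so the share that rose was near that of all genes. Adipoq, the adiponectin hormone of fat cells, had 2.82 and 4.27 CPM in the newborns and 0.0324 to 0.189 in the closed eyes (log2 fold change -4.89, adjusted p = 0.00273). The lipid droplet proteins Plin1 (-5.82) and Cidec (-5.03) and the fatty acid carrier Fabp4 (-2.81) fell too, with no overlap between ages. Fasn, the fatty acid synthase, had 366.6 and 434.4 CPM against 1214, 1506, 1936 and 1373 (log2 fold change 1.87, adjusted p = 0.00107), and Acaca, which makes its substrate, rose by 0.80 (adjusted p = 0.0021). Every closed eye was above both newborn libraries for these enzymes. With the offsets 5 of the list fell and 1 rose, when Acaca was not called (0.30, adjusted p = 0.062). Without newborn replicate 1, 2 fell and 2 rose, and Plin1 (adjusted p = 0.0506) and Cidec (0.0562) were lost. Of 16 sebaceous and meibomian lipid genes, 3 rose and 4 fell, beside 20.2% and 19.0% of all genes.

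Cornea genes had 5 higher and 4 lower of 16 tested (median 0.18), near the shares of all genes. Krt12 (chromosome 11), the keratin that marks corneal epithelium, had 15.2 and 29.3 CPM in the newborns and 87.1 (E24), 113.5 (E29), 97.0 and 100 (E28) in the closed eyes. All closed eyes were above both newborns and close to each other. The log2 fold change was 2.15 (SE 0.27, adjusted p = 0.00197), 2.09 with the offsets and 3.08 in the labelled knockouts. Tkt, a transketolase abundant in corneal cells, rose by 0.71 (adjusted p = 0.0058). Keratocan (Kera, -0.80, adjusted p = 0.0243), lumican (Lum, -0.99, adjusted p = 0.0111) and osteoglycin (Ogn, -1.94, adjusted p = 0.00102), which space the collagen fibrils of the stroma, fell. With the offsets Kera was at 0.11 and Lum at -0.20, neither called, while Ogn still fell (-0.66). Leaving out newborn replicate 1, Kera (adjusted p = 0.123), Lum (0.0628) and Tkt (0.0606) were lost, and without replicate 2 Kera (0.133) and Lum (0.0848). Kera was also lost in the shared-spread fit (0.283).

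Retinal progenitor genes were higher in part. Of 27 listed and tested, 15 were higher and 2 lower at day 3, beside 20.2% and 19.0% of all genes. Their median log2 fold change was 0.67. Six3 (NM_011381, chromosome 17), an eye field homeobox gene, had 253.2 and 292.5 CPM in the newborns and 702.3 (E24), 629.4 (E29), 953.2 and 877.4 (E28) in the closed eyes. Notch1, the receptor that holds cells in the progenitor state, had 382.4 and 469.7 against 981.7, 1232, 1916 and 1385. Neither gene overlapped, and both eyes of E28 were above E24 and E29 for each. Log2 fold changes were 1.45 (SE 0.18, adjusted p = 0.00184) and 1.60 (SE 0.23, adjusted p = 0.00279). Sox2 (0.98), Fgf15 (0.77), Neurog2 (0.78) and Atoh7 (1.31), the last being the factor that gives ganglion cells their fate, rose as well.

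Lower in the same list were Btg2 (-0.77), an antiproliferative gene of cells about to leave the cycle, and Neurod4 (-0.98), a bHLH factor of postmitotic precursors. Neurod4 was at -0.03 with the offsets and not called. The list had 10 higher and 1 lower with the offsets (median 0.39), and Neurog2 (0.50, adjusted p = 0.0584) lost its call there. When newborn replicate 1 was left out, it had 8 higher and 0 lower, and Atoh7 (adjusted p = 0.0556), Neurog2 (0.0762), Btg2 (0.0625) and Neurod4 (0.139) were lost. Without replicate 2 Atoh7 (0.0694), Btg2 (0.0674) and Neurod4 (0.113) were lost, and without E28 Neurod4 was lost. The shared-spread fit had 3 higher and 0 lower (median 0.69). Six3 and Notch1 stayed called there, and the other 6 called genes named here were lost, with adjusted p-values from 0.0578 (Sox2) to 0.349 (Neurod4). In the labelled knockouts 22 were higher and 1 lower (median 2.41).

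Cell division genes were higher more often than genes at large. Of 43 DNA replication genes 14 were higher and 5 lower (median 0.06), and of 31 mitosis genes 12 were higher and 5 lower (median 0.20), and the shares that fell were below the 19.0% of all genes. Mcm5, a subunit of the replicative helicase, had 130.0 and 142.5 CPM in the newborns and 230.7, 256.7, 268.6 and 230.7 in the closed eyes (log2 fold change 0.85, SE 0.11, adjusted p = 0.0021). Other helicase subunits, Mcm2 (1.13) and Mcm3 (0.99), and the polymerase subunit Pold1 (1.36) rose. Lower were Ccne2 (-1.77), the cyclin of S phase entry, and Dut (-0.91), which removes dUTP. For mitosis, Mki67 (0.72), the kinases Plk1 (0.94) and Aurkb (0.79) and Cdc20 (0.87), the activator of the anaphase ligase, rose, and the kinetochore gene Ndc80 (-1.04) and the motor Kif11 (-0.56) fell. Every named gene of this paragraph had all closed eyes on one side of both newborns.

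Under the GC and length offsets the split was less even: 17 replication genes were higher and 3 lower (median 0.31), and 10 mitosis genes were higher and 0 lower (median 0.32). Ccne2 (-0.57, adjusted p = 0.124), Ndc80 (-0.47, 0.0772), Kif11 (-0.17, 0.255) and Mki67 (0.39, 0.0522) were then not called. Without newborn replicate 1, replication had 9 higher and 2 lower and mitosis 4 higher and 0 lower, and Dut (adjusted p = 0.0612), Aurkb (0.0591), Ndc80 (0.0742) and Kif11 (0.107) were lost. Without replicate 2 replication had 13 higher and 3 lower and mitosis 7 and 3. Leaving out E28 gave 13 and 3 for replication and 8 and 4 for mitosis. The shared-spread fit gave 13 and 4 for replication and 5 and 2 for mitosis, without Mki67 (adjusted p = 0.0906) and Kif11 (0.154). The labelled knockouts had 18 replication genes higher and 1 lower, and 12 mitosis genes higher and 0 lower.

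E2F factors switch on replication genes at the start of S phase, and their binding letters are common before these genes. TTTCCCGC or TTTGGCGC, on either strand, occur in the windows of 13 of 33 matched replication genes (39.4%) and of 1.8% of all genes. The window of Mcm5, which rose in all 3 mice, is shown with the match in capitals (RefSeq on GRCm38.p6, plus strand, chr8:75109259-75109558); the match reads on the opposite strand and begins 149 bases before the start.
Mcm5: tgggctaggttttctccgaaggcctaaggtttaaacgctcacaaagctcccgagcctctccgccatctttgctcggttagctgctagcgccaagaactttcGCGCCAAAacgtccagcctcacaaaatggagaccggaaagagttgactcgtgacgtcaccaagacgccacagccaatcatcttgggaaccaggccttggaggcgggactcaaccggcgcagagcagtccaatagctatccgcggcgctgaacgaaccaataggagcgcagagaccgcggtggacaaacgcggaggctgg

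Of 25 ganglion cell genes tested, 14 were higher and 0 lower at day 3, beside 20.2% and 19.0% of all genes. Their median log2 fold change was 0.69. Pou4f2 (NM_138944), the POU factor that carries ganglion cell differentiation, had 20.4 and 25.1 CPM in the newborns and 58.5 (E24), 52.0 (E29), 75.7 and 60.5 (E28) in the closed eyes. Tubb3, the tubulin of young neurons, had 633.6 and 698.8 against 1505, 1667, 1871 and 1370. Both genes were at least 2-fold higher in fitted level in the closed eyes, with no overlap. Their log2 fold changes were 1.39 (SE 0.16, adjusted p = 0.00157) and 1.26 (SE 0.12, adjusted p = 0.00119). Pou4f1 (1.14), the neurofilament gene Nefl (0.98) and the related filament gene Ina (1.19) rose too. All 5 stayed called with the offsets and without any single mouse or newborn library, but Pou4f1 (adjusted p = 0.0689) and Nefl (0.0921) were lost in the shared-spread fit. The list had 14 higher with the offsets (median 0.45), 9 without newborn replicate 1, 11 without replicate 2, 7 in the shared-spread fit and 20 in the labelled knockouts (median 2.23), with 0 lower in each.

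Of 36 rod genes tested, 12 were lower and 1 higher at day 3, beside 19.0% and 20.2% of all genes. Their median log2 fold change was -0.44. Nrl (NM_008736, chromosome 14), the leucine zipper factor that sets rod fate, had 273.0 and 299.6 CPM in the newborns and 229.9 (E24), 116.0 (E29), 163.2 and 150.3 (E28) in the closed eyes. Every closed eye lay below both newborns, with E24 the nearest to them. Nrl fell by 0.78 (SE 0.25, adjusted p = 0.0432), a call that RLE size factors also ended. For scale, adult eyes had 383.1 to 954.1 RPM of Nrl. The factors Nr2e3 (-0.45) and Crx (-0.28) and rod transducin (Gnat1, -0.12) overlapped between ages and were not called.

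Among phototransduction genes, Pdc (phosducin, -1.20, adjusted p = 0.00299), the channel subunit Cnga1 (-1.72), the transducin subunit Gngt1 (-2.40) and the phosphodiesterase subunit Pde6g (-0.81) fell. Rp1 (-0.98) and Rpgrip1 (-0.81), proteins of the outer segment axoneme and connecting cilium, fell too. Rbp3, which carries retinoid between photoreceptors and pigment epithelium, rose by 0.89 (adjusted p = 0.0174), from 599.7 and 789.3 CPM to 977.3 to 1583. With the offsets 5 fell and 1 rose (median -0.48), and Pdc (-0.07), Gngt1, Rp1, Pde6g and Rbp3 were not called. Leaving out newborn replicate 1, only Pdc of the 8 called genes named here was called, and the list had 1 lower and 0 higher. Without replicate 2 it had 4 lower and 1 higher and Nrl (0.183), Pde6g (0.0651) and Rpgrip1 (0.0577) were lost. Without E24 it had 21 lower, Nr2e3 and Crx among them, without E29 8, when Nrl was lost, and without E28 6, when Nrl and Rbp3 were lost. The shared-spread fit had 1 lower (Gngt1), and Nrl (adjusted p = 0.377), Pdc (0.199) and Cnga1 (0.0659) were lost with the rest. Between the labelled-knockout groups, 23 rod genes were higher at day 3 and 0 lower (median 1.71), with Nrl at 2.25. The 6 main rod markers summed to 64.6 and 200.2 CPM in the newborn labelled knockouts, on the scale of all newborn and day 3 libraries. On the scale of the libraries compared, they summed to 882.3 and 974.8 in the newborn wild types and to 466.9 to 906.4 in the closed eyes. Against the newborn wild types, the rod list was thus not higher, and the progenitor list was higher, in the libraries with the later age label. Against the newborn labelled knockouts both lists were higher. Whether the age labels hold was not tested.

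CRX and OTX2, homeobox factors of photoreceptors, bind a core of TAATCC. These letters, on either strand, lie in the windows of 12 of 26 matched rod genes (46.2%) and of 8.14% of all genes. The window of Cnga1, a member that fell in this comparison, is shown with them in capitals, 228 bases before the start (RefSeq on GRCm38.p6, minus strand, chr5:72642703-72643002).
Cnga1: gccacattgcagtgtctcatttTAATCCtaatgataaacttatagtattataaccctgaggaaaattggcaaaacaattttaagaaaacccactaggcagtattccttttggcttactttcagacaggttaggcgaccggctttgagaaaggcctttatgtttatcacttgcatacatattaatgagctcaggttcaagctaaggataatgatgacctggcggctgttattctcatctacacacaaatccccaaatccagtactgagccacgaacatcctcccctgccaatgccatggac

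**Figure D4:**
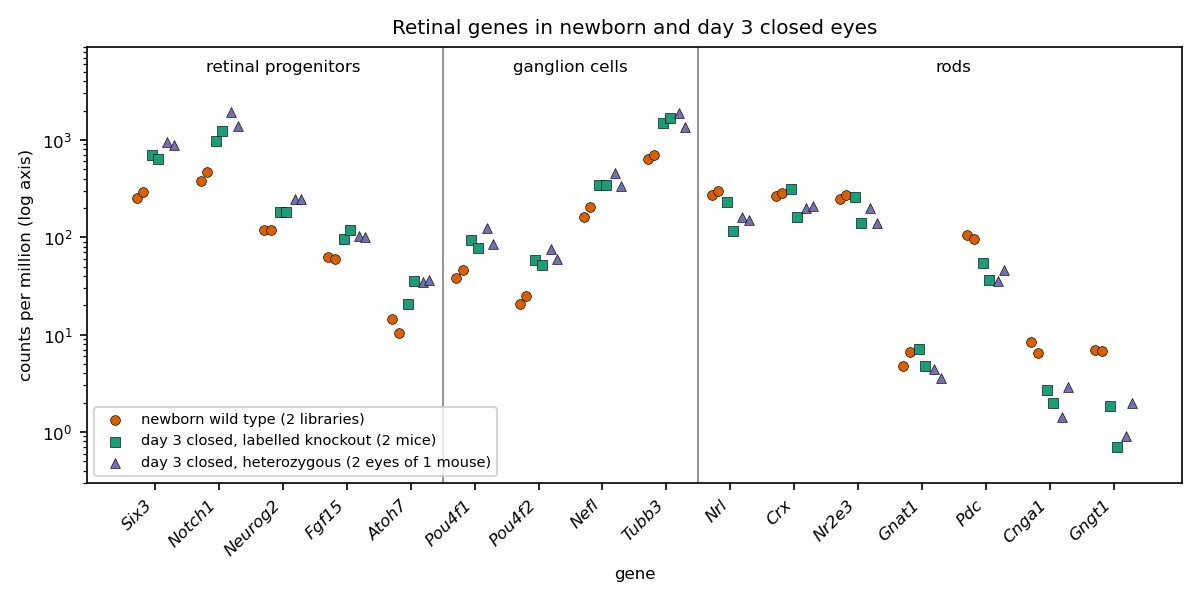
CPM (log axis) of retinal progenitor, ganglion cell and rod genes in the 2 newborn wild-type libraries, the closed eyes of 2 labelled-knockout mice and both eyes of 1 heterozygous mouse. Progenitor and ganglion cell genes lie higher in every closed eye than in the newborns, whereas Nrl, Pdc, Cnga1 and Gngt1 lie lower and Crx, Nr2e3 and Gnat1 overlap.

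Cone genes were called 2 times higher and 5 times lower among 18 tested (median -0.26), beside 20.2% and 19.0% of all genes. Opn1sw, the short-wave opsin and the earliest made, had 47.6 and 49.3 CPM against 36.6 to 42.4 and was not called (log2 fold change -0.26, adjusted p = 0.0905). Sall3, a zinc finger factor of cones and horizontal cells, rose by 1.56 (adjusted p = 0.00136). Gngt2, cone transducin gamma, fell by 0.86 and Arr3, cone arrestin, fell by 2.47, from 1.44 and 1.02 CPM to 0.0971 to 0.411. Arr3 lost its call without newborn replicate 1 (adjusted p = 0.165), replicate 2 (0.0791) or E28 and with the offsets (0.057), and Gngt2 without replicate 1 (0.0695), with the offsets (0.0765) and in the shared-spread fit (0.118). The list had 1 higher and 0 lower without replicate 1, 2 and 1 without replicate 2, 2 and 2 without E28 and 2 and 2 with the offsets. In the labelled knockouts 9 of 17 were higher and 0 lower.

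Other inner retinal lists gave fewer calls, beside 20.2% higher and 19.0% lower of all genes. Amacrine and horizontal cell genes had 4 higher and 2 lower of 21 (median 0.09), and bipolar cell genes 3 higher and 1 lower of 23 (median -0.08). With the offsets the first list had 2 higher and 1 lower, and the bipolar list 0 and 0. Slc18a3, the vesicular acetylcholine transporter of starburst amacrine cells, had 9.75 and 11.9 CPM against 18.9 to 41.2 (log2 fold change 1.42, adjusted p = 0.00135). Onecut1, a horizontal cell factor, rose by 1.52, and the glycine transporter Slc6a9 rose by 0.67. Snhg11, a long non-coding RNA of neurons, had 13.8 and 10.8 CPM in the newborns and at most 0.416 in the closed eyes, and fell by 5.66 (SE 0.55, adjusted p = 0.00119). Onecut1 was lost without newborn replicate 1 (adjusted p = 0.0692) or 2 (0.0668), and Slc6a9 without replicate 1 (0.125) and with the offsets.

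Müller glia and astrocyte genes had 8 higher and 1 lower of 23 (median 0.31), beside 20.2% and 19.0% of all genes. Glul, the glutamine synthetase of Müller glia, had 382.6 and 395.9 CPM against 564.5 to 583.9 (log2 fold change 0.55, adjusted p = 0.0066). Sox9, a factor of progenitors and Müller glia, rose by 1.17, and Pax2, which marks optic nerve astrocytes, rose by 2.08. Gfap, the astrocyte filament, had 214.1 and 116.7 CPM in the newborns and 441.1, 281.8 and 404.8 in E24, E29 and the right eye of E28, but 7.89 in the left eye of E28, and was not called (adjusted p = 0.0595). The eyes of 1 mouse thus differed more than the ages did. When newborn replicate 1 was left out, the list had 4 higher and Glul was lost (adjusted p = 0.0597), and without E29 it had 12 higher, Gfap among them.

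Synapse genes had 12 higher and 2 lower of 32, beside 20.2% and 19.0% of all genes, with a median of 0.05. Bsn (bassoon), a scaffold of the presynaptic active zone, had 57.8 and 58.8 CPM against 163.6, 170.6, 282.3 and 196.8 (log2 fold change 1.72, adjusted p = 0.00138). Dlg4 (PSD-95), a postsynaptic scaffold, rose by 0.97 and the glutamate receptor gene Gria2 fell by 0.81. Under the offsets Bsn was at 0.39 (adjusted p = 0.0452) and Gria2 at -0.05, and the list had 4 higher and 2 lower. Without newborn replicate 1 it had 3 higher and 0 lower, and without replicate 2 it had 9 and 0, with Gria2 lost in both (adjusted p = 0.172 and 0.081). Without E28 it had 8 and 0, again without Gria2, and without E24 it had 10 higher and 6 lower.

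The lens list was called lower more often than higher. Of 33 tested, 6 were higher and 12 lower (median -0.25), and all the gamma crystallins named here fell. Crygb (chromosome 1) had 6860 and 5654 CPM in the newborns and 1905 (E24), 1150 (E29), 1866 and 1720 (E28) in the closed eyes, with no overlap (log2 fold change -1.96, SE 0.22, adjusted p = 0.00143). Crygc (-1.49), Cryge (-1.11), Crygd (-1.03) and Crygf (-0.94) fell as well. These genes are near-identical copies, so the values of single members are uncertain. Crygs (-1.04) and Crybb2 (-0.96), further refractive crystallins, were lower. Cryaa, the alpha crystallin chaperone and the most abundant lens transcript named, had 39104 and 39992 CPM against 41466 to 59036 and was not called (log2 fold change 0.34, adjusted p = 0.147).

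Higher in the lens list were the gap junction gene Gja3 (0.84, adjusted p = 0.00487) and the factors Maf (1.08), Prox1 (0.67) and Foxe3 (0.78), which run fibre differentiation or the epithelium. Gja3 had 239.6 and 310.5 CPM against 392.9 to 648.7. The lens list summed to 134353 and 129098 CPM in the newborns and 98942 to 144485 in the closed eyes. The higher share of the list, 6 of 33, was near that of all genes. Leaving out newborn replicate 1, it had 3 higher and 2 lower, and 7 of the 11 called genes named here were lost (Cryge, Crygd, Crygf, Crybb2, Crygs, Prox1 and Foxe3). Without replicate 2 it had 3 and 6, and Crybb2, Crygs, Prox1 and Foxe3 were lost. In the shared-spread fit the list had 0 calls, with adjusted p = 0.0873 for Maf, 0.174 for Crygb and 0.534 for Gja3. Foxe3 was also lost without E24, and with Prox1 without E28, and without E29 9 were higher, Cryaa among them. The offsets left 4 higher and 5 lower, without Crygf, Crygs and Foxe3. Between the labelled-knockout groups, 0 were called, where the lens list summed to 1249 and 106846 CPM in the newborn libraries.

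Collagen and matrix genes were mostly higher. Of 45 tested, 26 were higher and 4 lower (median log2 fold change 0.60), beside 20.2% and 19.0% of all genes. Col1a1, the main fibrillar collagen of sclera, cornea and dermis, had 2157 and 2979 CPM in the newborns and 6447 (E24), 9279 (E29), 10040 and 4622 (E28) in the closed eyes (log2 fold change 1.60, SE 0.21, adjusted p = 0.00221). The basement membrane collagens Col4a1 (1.21) and Col4a2 (1.53) and fibronectin (Fn1, 1.33) rose, with no overlap between ages. Col3a1 had 1050 and 1611 CPM against 1236 to 2309 and was not called (0.40, adjusted p = 0.246). Among the 4 lower members, fewer than the share of all genes, dermatopontin (Dpt) fell by 1.36 and asporin (Aspn) by 1.78. With the offsets 8 rose and 2 fell (median 0.22), Col1a1 was at 0.83 (adjusted p = 0.0176) and Aspn at -0.24, not called. When newborn replicate 1 was left out, 8 rose and 3 fell, but all 6 called genes named here were called. The shared-spread fit had 20 higher and 3 lower, without Dpt (adjusted p = 0.0652). In the labelled knockouts 4 were higher and 13 lower (median -0.42), with Col1a1 at 0.15, not called.

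Vessel genes rose in part. Of 34 endothelial and mural cell genes, 17 were higher and 2 lower (median 0.62), beside 20.2% and 19.0% of all genes. Cdh5, the cadherin of endothelial junctions, had 55.6 and 66.4 CPM against 93.7, 148.5, 153.6 and 95.7 (log2 fold change 1.01, adjusted p = 0.00746). Erg (1.57), an endothelial ETS factor, von Willebrand factor (Vwf, 1.75), Plvap (1.39), which forms the diaphragms of leaky vessels, and the glucose transporter Slc2a1 (1.07) rose. The pericyte gene Rgs5 (-0.93) and the sialomucin Emcn (-0.91) fell, and with the offsets Rgs5 was at -0.01 and Emcn at 0.09. The list then had 4 higher and 0 lower (median 0.29), without Vwf and Plvap. Without newborn replicate 1 it had 4 higher and 1 lower, and Cdh5 (adjusted p = 0.0928), Vwf (0.0662), Plvap (0.121) and Emcn (0.105) were lost. The labelled knockouts had 3 higher and 10 lower (median -0.62).

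**Figure D5:**
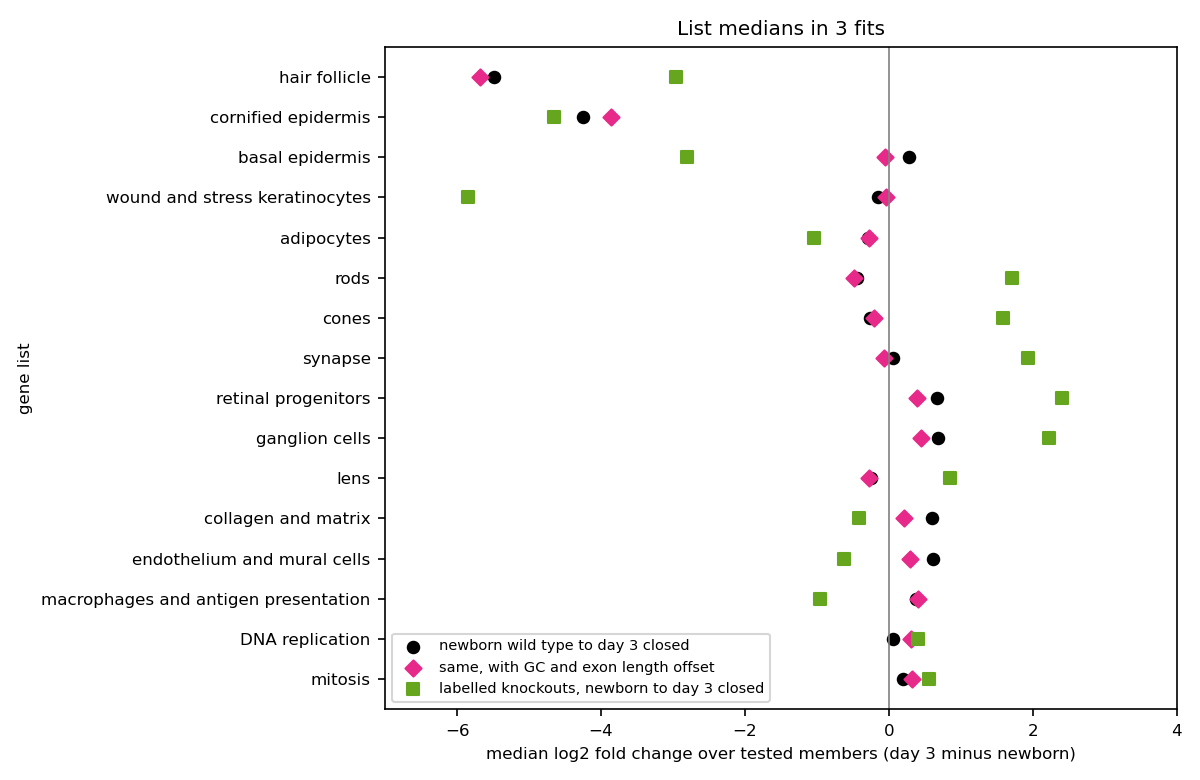
Median log2 fold change from newborn to day 3 over the tested members of 16 gene lists, in the comparison of newborn wild type with closed eyes, the same with offsets for GC content and exon length, and the labelled knockouts at both ages. Hair follicle and cornified epidermis are far below 0 in each, whereas rods are at -0.44 in the first and 1.71 in the last.

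Lung epithelium genes, which do not name an eye tissue, were among the largest rises. Scgb1a1 (NM_011681, chromosome 19), the secretoglobin of airway club cells, had 5.03 and 0.427 CPM in the newborns and 32.1 (E24), 603.8 (E29), 204.9 and 253.0 (E28) in the closed eyes. Sftpc, surfactant protein C of the alveolus, had 6.57 and 0.768 against 27.1, 654.9, 251.8 and 186.9. All closed eyes lay above the newborns, but E24 and E29 differed more than 10-fold. The log2 fold changes were 6.77 (SE 1.47, adjusted p = 0.0106) and 6.40 (SE 1.51, adjusted p = 0.0142). The secreted Sfta2 (6.08) and Scgb3a2 (4.18), the surfactant proteins Sftpb (4.79) and Sftpa1 (4.44), the alveolar receptor Ager (4.90), the lung-rich methyltransferase Inmt (4.68) and the airway protein Plunc (3.75) also rose.

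A list of 20 lung genes, made after these values were seen, had 11 higher and 0 lower, beside 20.2% and 19.0% of all genes. Its 12 defining markers summed to 43.0 and 15.8 CPM in the newborns and to 93.2, 1999, 780.7 and 736.5 in the closed eyes, and none was at 0 reads in any of the 6 libraries. On the scale of all newborn and day 3 libraries the sum was 88.9 and 46.4 in newborn labelled knockouts and 151.7 to 590.3 in open eyes at day 3. Rising with them were Hp (4.50) and Lcn2 (4.32), secreted proteins of acute inflammation, the B cell gene Faim3 (5.40) and the antigen presentation genes Cd74 (3.76) and H2-Aa (3.61). A list of B cell genes, also made afterwards, had 3 higher and 0 lower of 9, beside the same shares. The source of this RNA was not tested. All 14 genes named in these 2 paragraphs lost their call without either newborn library. Without E28, 8 kept it, and 9 with the offsets, and the lung list then had 1, 2, 9 and 8 higher. Lost in the shared-spread fit were Sftpa1 (adjusted p = 0.0504) and Faim3 (0.0705).

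Of 31 macrophage and antigen presentation genes, 8 were higher and 1 lower (median 0.37). The higher share was near the 20.2% of all genes. Csf1r, the receptor for the macrophage growth factor, had 35.1 and 39.0 CPM against 79.1, 81.9, 51.2 and 50.9 (log2 fold change 0.92, adjusted p = 0.0138), and Cx3cr1, a microglial receptor, rose by 0.90. Leaving out newborn replicate 1, the list had 0 calls, without replicate 2 it had 3 and without E28 it had 5. With the offsets it had 2, and Csf1r was not among them. Cx3cr1 was lost in the shared-spread fit (0.0678). Between the labelled-knockout groups, 13 were lower and 0 higher. Interferon response genes had 0 higher and 2 lower of 29 (median -0.61), mast cell genes 2 higher of 10, and neutrophil genes 1 higher and 1 lower of 12. The shares of all genes, 20.2% higher and 19.0% lower, stand beside these lists too.

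Of 42 skeletal muscle genes 3 were higher and 6 lower (median -0.14), below the shares of all genes. Tnni2, fast troponin I, had 205.2 and 175.0 CPM against 26.4 to 79.5 (log2 fold change -1.79, adjusted p = 0.00294), and parvalbumin (Pvalb) fell by 2.54. Chrng, the fetal subunit of the muscle acetylcholine receptor, had 44.2 and 48.3 against 84.5 to 142.3 (1.26, adjusted p = 0.00108), and Myh3, embryonic myosin, rose by 1.17 (adjusted p = 0.0358). When newborn replicate 1 was left out, the list had 1 higher and 1 lower, and Pvalb (adjusted p = 0.0528) and Myh3 (0.215) were lost. Myh3 was also lost without replicate 2 and with the offsets, and with Chrng in the shared-spread fit (adjusted p = 0.0644 and 0.138). Muscle RNA varied by eye: the list summed to 3540 (E24), 6814 (E29), 2377 and 4799 CPM (E28), and without E29 18 genes were lower. Leaving out E24 gave 7 higher and 7 lower, and leaving out newborn replicate 2 gave 1 and 4.

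Imprinted genes of the growth network had 4 higher and 2 lower of 21, the higher share being near the 20.2% of all genes. Meg3 (chromosome 12), a maternally expressed non-coding RNA, had 90.4 and 82.7 CPM in the newborns and 7.38, 7.03, 11.6 and 9.41 in the closed eyes (log2 fold change -3.37, SE 0.19, adjusted p = 0.00058). Rian, its neighbour in the same imprinted cluster, fell by 2.17. Peg3 (1.17), Plagl1 (1.14) and Igf2r (1.09) rose. Igf2r lost its call without newborn replicate 1 (adjusted p = 0.058) and with the offsets, and without replicate 1 the list had 2 higher. The labelled knockouts had Meg3 at -4.32 and 2 higher and 9 lower in the list.

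Genes of eyelid closure, a list of factors whose loss leaves mice born with open lids, had 10 higher and 4 lower of 31 (median 0.36). Of all genes tested, 20.2% were higher and 19.0% lower. Jun rose from 130.4 and 172.9 CPM to between 237.3 and 371.8 (log2 fold change 1.00, adjusted p = 0.00779). Map3k1, a kinase upstream of it, rose by 0.58 and the receptor Egfr by 0.88 (adjusted p = 0.0447). Among feedback inhibitors of the same growth factor signals, Dusp6 rose by 0.73 and Spry2 by 0.63. Nab1, which binds Egr1 and represses its targets, had 73.4 and 54.5 CPM against 14.95 to 17.95 and fell by 1.97 (adjusted p = 0.000986). With the offsets the closure list had 2 higher and 1 lower, and Jun, Egfr and Map3k1 were not called. Without newborn replicate 1 it had 3 higher and 0 lower, and of the 6 genes only Nab1 was called, and without replicate 2 Spry2 and Egfr were lost and the list had 9 higher and 1 lower. Egfr was lost in the shared-spread fit (0.156) and without E28 as well, when the list had 5 higher and 3 lower. Immediate-early genes, to which Egr1 belongs, had 10 higher and 4 lower of 36, 0 and 1 without newborn replicate 1, 4 and 1 without replicate 2 and 16 and 2 without E24.

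A few genes changed in steps far larger than the spread in either age. They were chosen after their values were seen, apart from Frmd8, which the rule on largest rises named. Keeping their calls in refits of the same libraries therefore adds no support, and the labelled-knockout comparison shares closed eyes. Frmd8 (NM_026169, chromosome 19), a FERM domain protein, had 71.5 and 66.4 CPM in the newborns and 749.2, 908.6, 861.2 and 907.8 in the closed eyes (log2 fold change 3.61, SE 0.15, adjusted p = 0.000305). Adamtsl4, an extracellular protein of the lens zonule, had 38.1 and 47.5 against 320.9 to 401.8 (3.05), and Wdr45, an autophagy protein, 37.8 and 38.0 against 220.6 to 257.3 (2.66). No closed eye came near the newborns. Rai14 (2.17) and Sdk2 (2.15) rose likewise. Acat3, a cytosolic thiolase, fell by 2.67 from 778.3 and 538.9 CPM to 97.7 to 112.9. Acat2 (-1.79) and its neighbour Tcp1 (-1.85) fell too, but Acat2 and Acat3 are close relatives and Tcp1 and Acat2 overlap, so their reads may be shared. All 8 were called with the offsets, without any single newborn library or mouse, and in the labelled knockouts. In open eyes at day 3, on the scale of all newborn and day 3 libraries, Frmd8 was at 1016 to 1255 CPM, Adamtsl4 at 651.9 to 750.9 and Wdr45 at 41.1 to 54.0.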

How the data were processed

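Poly(A)+ RNA of mouse eyes with lids was sequenced on the HiSeq 2000 after 18 cycles of PCR, per the labels' protocols. The submitters' processing notes name CASAVA 1.8, Bowtie 0.12.9, TopHat2 2.0.11, SAMtools and mouse build mm8. The annotation release and counting tool are not given in the sources used here. The labels describe fixation in one protocol and RNAlater in another. Per the file headers, the deposited tables hold raw read counts and the authors' RPKM values (reads corrected for exon length and depth) for 24373 RefSeq transcripts with 20418 gene symbols. RPKM served only to filter. The libraries were not strand-specific by their protocol, so overlapping and antisense genes share reads, as do near-identical copies.

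The transcript with the highest mean count over all libraries stood for each symbol. Counts of both E28 eyes were summed, so day 3 held 3 mice. Counts were tested in R 4.3.3 with edgeR 4.0.16 (filterByExpr, TMM, quasi-likelihood test, residual df 3), with p-values adjusted by Benjamini and Hochberg over all genes at a threshold of 0.05. CPM are counts scaled to the TMM-adjusted library total. SE is the log2 fold change divided by the square root of F. The code was tested on simulated data. Bounds set 3 reads over the day 3 side against genes at 0, intervals are exact at 95%, and both cover counting error only. Low folds of genes with few reads depend on the prior count.

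Genes were named by rule: Egr1, up to 15 largest rises and falls that passed the test, reached 1 RPKM and did not overlap between ages, the main markers of each list, and up to 6 members of a list with the smallest p in each direction. Some genes are not reported here, and the text gives values for a part of the others and the lists by their counts. The members and lists were chosen with earlier results of these data known. The lung and B cell lists, the TATAAA search, the gene families of the closing section and the genes with a sharp step were chosen after values were seen.

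Alternatives were DESeq2 1.42.0, RLE size factors, other filters, the authors' library totals, all transcripts, subsets of mice, each library left out, and 1 spread over more mice. Added after seeing the data were subtraction of the nose receptor level, a minimum of 1 RPKM in the higher side, and offsets for GC content with or without exon length (lowess, span 0.3). GC content came from a later annotation (GENCODE on GRCm38) by symbol or RefSeq ID and covered 15820 of 15933 genes. Promoter windows are RefSeq's on GRCm38.p6, and mm8 coordinates are not used here.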

Additional observations from a re-analysis of the deposited data

Results flagged for a closer look

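Single closed eyes stood apart for 7 of 161 named genes when the gap between the most distant eye and its neighbour was divided by the range of all 4 eyes, by Dixon's rule. Chance alone flags about 1 in 20 such groups, and the 2 eyes of E28 share a mouse. Peg3 stood at 354 CPM in E29 against 244 to 262 in the other closed eyes. In E24, Atoh7 stood at 20.8 CPM against 34.4 to 36.1 and Rpgrip1 at 25.8 against 17.6 to 18.9. The right eye of E28 had 7.9 CPM of Ndc80 against 11.3 to 11.7, 461 of Nefl against 338 to 346, and 1369 of Col4a2 against 1186 to 1216. Its left eye had 7.11 CPM of Dsc3 against 3.29 to 3.3.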

How the results depend on the processing

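No paired analysis was possible because the newborn libraries and the day 3 mice share no replicate numbers, so no replicate block could be fitted. The counts of 3215 higher and 3033 lower genes were 1504 and 1391 with offsets for GC content and exon length, 1763 and 1195 with the heterozygous mouse alone, and 909 to 3444 higher and 396 to 3159 lower when 1 library or mouse was left out. The lowest counts came without newborn replicate 1, and 1639 genes were lower without newborn replicate 2. The cause was not tested, though fewer samples entered these fits. With DESeq2 they were 3811 and 2995. No other alternative moved either count by more than 1.5 times, but the number of genes tested differed, at 20165 without a filter, 8684 with a mean of at least 5 RPKM and 19655 with all transcripts. Of 160 called genes named in the text, 89 kept the call without newborn replicate 1, 119 without replicate 2, 143 without E28, 95 where all newborn and day 3 mice share the spread, 115 with both offsets, 136 with the GC offset, 115 with the heterozygous mouse alone, 114 at a mean of at least 5 RPKM, 90 with labelled knockouts at both ages, and 154 to 160 under each other alternative. Among the last, DESeq2 lost Krt17, Neurod4 and Myh3, RLE size factors Krt17, Nrl and Tyr, and the authors' totals Krtap4-8, Kif11, Glul, Tyr, Per2 and Nr1d1. Over all alternatives, 3125 single-gene values kept their direction and their side of the threshold, 370 kept the direction but lost the call, 17 gained one and 58 changed direction. Among list medians 165 moved by less than their spread, 58 by more and 8 changed sign.

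Changed signs were as follows on the log2 scale. With offsets for GC content and exon length: Per2 -0.031, Col3a1 -0.11, Emcn 0.092, Kera 0.11, Tyr 0.72 and the basal epidermis median -0.057. With the GC offset alone: Krt5 -0.021, Gria2 0.23 and Tyr 0.64. With the heterozygous mouse alone: Krt14 0.17. With the labelled-knockout mice alone, which is the fit without E28: Gnat1 0.039. Without newborn replicate 2: Gnat1 0.16, Krt73 0.21 and Krt14 0.38. With 1 library or mouse left out, Krt73 ran from -1.156 to 0.21, Krt14 from -0.652 to 0.38 and Gnat1 from -0.39 to 0.16. The DNA replication median was -0.02 at a mean of at least 5 RPKM and -0.014 with nose receptor levels subtracted.

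With labelled knockouts at both ages, genes and lists above 0 in the main comparison were at: Gfap -0.004, Peg3 -0.034, Plvap -0.052, Dusp6 -0.058, Csf1r -0.14, Cdh3 -0.22, Hba-a1 -0.23, Igf2r -0.33, Per2 -0.37, Egr1 -0.39, collagen median -0.42, Cdh5 -0.48, Vwf -0.57, endothelium median -0.62, Myh3 -0.77, Fn1 -0.81, Jup -0.90, Egfr -1.04, Sox10 -1.07, Col3a1 -1.43, Itgb4 -2.18, Krt5 -2.75, basal median -2.81, Aqp3 -3.01 and Krt6a -3.92. Those below 0 were at: Dut 0.005, Cryge 0.069, Cnga1 0.18, Crygd 0.19, Crygf 0.22, Rpgrip1 0.43, Gngt1 0.55, Crybb2 0.58, Crygs 0.66, Btg2 0.81, lens median 0.85, Gria2 0.98, Krt73 1.37, Rp1 1.48, rods median 1.71, Gngt2 1.73, Neurod4 1.79, Pdc 1.84, Nrl 2.25, Opn1sw 2.30, Crx 2.36, Nr2e3 2.56, Pde6g 2.61 and Gnat1 3.01. The cause was not tested. Depth limits genes with few reads, such as Cyp2g1 and Abpe with 0 and 3 reads at day 3.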

Other observations

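Pigment epithelium and melanocyte genes had 3 higher and 2 lower of 18: Stra6, the receptor that takes up retinol, had 65.9 and 78.5 CPM in the newborns and 144.1 to 175.5 in the closed eyes (log2 fold change 1.18, adjusted p = 0.00131), and tyrosinase (Tyr), which makes melanin, was lower (-0.53, adjusted p = 0.0446) but at 0.72 and called higher with the offsets. Lacrimal and exocrine gland genes had 1 higher and 1 lower of 12. Of 14 myelin and Schwann cell genes 2 were higher and 1 lower. Sox10, a factor of neural crest and Schwann cells, had 26.9 and 32.6 CPM against 39.96, 139.9, 51.3 and 156.8 (1.63, adjusted p = 0.0268), and lost its call without newborn replicate 1 (0.195), replicate 2 (0.103) or E28 (0.0706), and with the offsets (1.03, adjusted p = 0.161). Of 14 globin and red cell genes 0 were higher and 1 lower, with Hba-a1 at 304.9 and 277.1 CPM against 187.8, 1223, 708.6 and 707.3 (adjusted p = 0.148). Among 17 clock genes 5 were higher and 1 lower, beside 20.2% and 19.0% of all genes. Per1 rose by 1.02 (adjusted p = 0.00138), Per2 by 0.61 and Nr1d1 by 0.51. With the offsets 0 clock genes were higher and 2 lower, and Per1 (0.23), Per2 (-0.03) and Nr1d1 (0.12) were not called. In the shared-spread fit Tyr (adjusted p = 0.207), Sox10 (0.115), Per2 (0.0798), Nr1d1 (0.114) and Cyp2g1 (0.0648) lost their calls. Glucocorticoid and metallothionein genes had 3 higher and 1 lower of 16, hypoxia and glycolysis genes 5 and 2 of 21, fetal Lin28 and let-7 target genes 4 and 3 of 15, and myogenic factors 1 and 0 of 15. All list counts of this paragraph without offsets stand beside the same 20.2% and 19.0% of all genes.

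Among the largest falls outside the lists were Cyp2g1, a cytochrome of the nasal lining, at 0 reads in every closed eye and at least 84.8-fold lower, and Abpe, an androgen-binding protein of glands, with 6.72 and 6.997 CPM in the newborns and 3 reads over the closed eyes (ratio 245.3, 95% counting interval 83.1 to 1196). Cytosolic ribosomal protein genes had 4 higher and 38 lower of 94 (median log2 fold change -0.34), and respiratory chain subunits 1 higher and 45 lower of 83 (median -0.44). These short transcripts had 15 higher and 11 lower (median 0.01), and 8 higher and 11 lower (median -0.08), with the offsets for GC content and exon length. Non-coding transcripts had 23 higher and 106 lower of 395 (median -0.45), and 18 higher and 62 lower with the offsets (median -0.23). For comparison, 20.2% of all genes were higher and 19.0% lower, and 9.44% and 8.73% with the offsets. Of 32 nose receptor genes that passed the filter, 26 were lower and 0 higher (median -6.93). They are 32 of 1364 and passed the filter where newborn reads were high, so their direction was largely set by it.

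In open eyes at day 3, which belong to no side of this comparison, hair follicle genes summed to 56.9 and 63.2 CPM in E24 and E29 and to 4032 and 215 in the right and left eye of E32. Krt12 had 25.1 to 38.8 CPM in the open eyes. These values are on a scale set over all newborn and day 3 libraries, and the difference between lid states was not tested here.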
